A study of Drosophila melanogaster with 12 samples.

Results

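The genes described here are 9 regulators of growth in Drosophila: InR, chico, foxo, Thor, Tor, Tsc1, gig, S6k and dm. They were chosen by name, as core components of insulin, TOR and Myc signalling, and all 9 were found by symbol among the 13281 genes of the authors' deposited table. RNA from eye discs, taken from larvae of the third instar, was hybridised to 12 Affymetrix arrays, 3 biological replicates for each of 4 genotypes. The control was GMR-Gal4/+, and the others were GMR-Gal4/UAS-miR-11 (miR-11 alone), GMR-Gal4/+; UAS-dE2F1,UAS-dDP/+ (dE2F1/dDP alone) and both in one animal, with UAS-miR-11 opposite the driver and UAS-dE2F1,UAS-dDP/+ as well (the combined genotype). Every genotype, the control included, carried the GMR-Gal4 driver and was kept at 25 degrees Celsius. GMR-Gal4 acts behind the morphogenetic furrow, whereas RNA was taken from discs as a whole, so cells outside the driver's domain contribute to every value. miR-11 is a microRNA, and dE2F1 with its partner dDP forms a transcription factor that activates cell cycle genes. The comparisons ask what each transgene did to these growth genes and whether the combined genotype differed from either alone.

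Insulin-like peptides bind the receptor encoded by InR, which acts through the adaptor encoded by chico to activate PI3 kinase and the kinase Akt. Akt keeps the transcription factor foxo out of the nucleus and relieves the inhibition that the Tsc1 and gig (Tsc2) proteins place on the growth kinase Tor. Tor activates S6k and inactivates Thor, the 4E-BP that holds back translation, while dm encodes Myc, which drives ribosome production. In the larval eye disc these genes are known for setting the size and growth rate of cells.

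The values are mean log2 changes of a genotype over the control, each with a rank product p-value for a rise and another for a drop. The authors also give a pfp, the share of genes ranked up to this one that they estimate to be false positives, which can exceed 1. Genes with a pfp under 0.05 on the side of their log2 change count as called. The table gives no level and no value per array, and the files used here do not pair the arrays' probe sets with genes, so levels and the spread between replicates of these genes are not analysed here and their changes carry no SD. In RNA from whole discs, fewer cells of a type and less RNA per cell cannot be told apart.

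No growth gene was called in any comparison of the authors' deposited table. The count was 0 of 9 with miR-11, where 0.452% of all genes were called, 0 of 9 with dE2F1/dDP, where 0.346% were, and 0 of 9 in the combined genotype, where 0.851% were. At an unadjusted one-sided p under 0.05 in either direction, 0 growth genes passed with miR-11 against 6.94% of all genes in the authors' deposited table. By the same threshold 1 of 9, S6k, passed with dE2F1/dDP against 12.9% of all genes, and 3 of 9, S6k, Thor and InR, passed in the combined genotype against 14.5%, all in the authors' deposited table. The smallest changes among called genes of the authors' deposited table were log2 1.41 and -1.30 with miR-11, 1.26 and -1.16 with dE2F1/dDP and 1.17 and -0.94 in the combined genotype. Every growth gene lay inside those bounds, with values from -0.43 to 0.60.

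The 9 genes went both ways with miR-11 and were mostly positive in both genotypes with dE2F1/dDP. With miR-11 5 were positive and 4 negative (median log2 0.007), beside 43.0% positive and a median of -0.03 over all genes of the authors' deposited table. Of the negative ones gig, InR and Tor lay among the lowest genes, with 3.28%, 3.64% and 5.88% of all genes below them in the authors' deposited table. With dE2F1/dDP all 9 were positive (median log2 0.24), beside 42.9% and a median of -0.03 over all genes of the authors' deposited table. In the combined genotype 8 of 9 were positive (median log2 0.36) and InR was the exception, beside 44.1% and a median of -0.03 for the whole of the authors' deposited table. Shares over all genes are not split by brightness. Among the arrays' brighter probe sets, those whose mean is above the median of all values, 49.3% were positive with dE2F1/dDP and 50.3% in the combined genotype. The upper quartiles of their changes were 0.30 and 0.27. All 3 comparisons use the same control arrays, so their signs are not independent of each other.

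**Figure D1:**
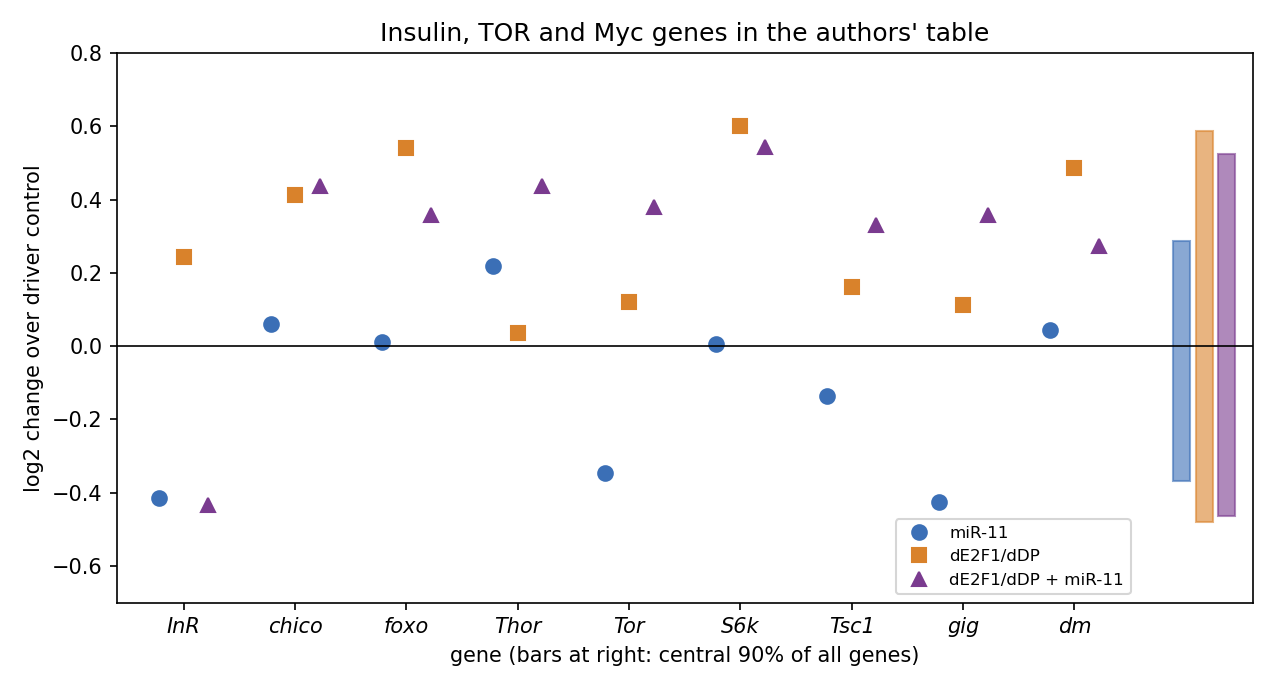
Log2 change over the driver control (vertical axis) of the 9 growth genes (horizontal axis) with miR-11 (circles), dE2F1/dDP (squares) and both (triangles), from the authors' deposited table, with bars at the right for the central 90% of all genes. S6k is highest with dE2F1/dDP at 0.60, and InR is the one gene below 0 in the combined genotype, at -0.43.

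The insulin receptor gene InR had log2 changes of -0.41 with miR-11, 0.24 with dE2F1/dDP and -0.43 in the combined genotype in the authors' deposited table. It was thus below the control in both genotypes that carry miR-11 and above it with dE2F1/dDP alone. Its unadjusted p for lower expression was 0.145 with miR-11 and 0.0198 in the combined genotype (pfp = 0.556) in the authors' deposited table, although both changes were of similar size. That pfp was the lowest of any growth gene in the direction of its change. With dE2F1/dDP alone its p for higher expression was 0.269 in the authors' deposited table. By the 2 negative values InR stood among the lowest genes, with 3.64% of all genes below it with miR-11 and 5.92% below it in the combined genotype of the authors' deposited table.

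The adaptor gene chico had log2 changes of 0.06 with miR-11, 0.41 with dE2F1/dDP and 0.44 in the combined genotype in the authors' deposited table. Its p for higher expression was 0.0707 with dE2F1/dDP and 0.0609 in the combined genotype in the authors' deposited table, so neither passed 0.05 unadjusted. The values with dE2F1/dDP differed by 0.02 between the genotypes without and with miR-11.

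The transcription factor gene foxo, which turns on growth-restraining genes when insulin signalling is low, was at log2 0.01 with miR-11, 0.54 with dE2F1/dDP and 0.36 in the combined genotype in the authors' deposited table. Its p for higher expression was 0.0535 with dE2F1/dDP and 0.0702 in the combined genotype in the authors' deposited table. Thor, a known target of foxo, had a different order, with 0.22 with miR-11, 0.04 with dE2F1/dDP and 0.44 in the combined genotype of the authors' deposited table. The combined value of Thor passed the unadjusted threshold (p for higher expression 0.0387, pfp = 0.602) in the authors' deposited table. InR, another known foxo target, was negative in the 2 genotypes where Thor was farthest above 0.

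Tor, which encodes the kinase at the centre of the pathway, was at log2 -0.35 with miR-11, 0.12 with dE2F1/dDP and 0.38 in the combined genotype in the authors' deposited table. Its inhibitor gene gig had nearly the same values, -0.43, 0.11 and 0.36 in that order in the authors' deposited table. The p-values for lower expression with miR-11 lay just above the unadjusted threshold, at 0.0526 for Tor and 0.0543 for gig, in the authors' deposited table. Tsc1, whose protein binds that of gig, was nearer 0 with miR-11, at -0.14, then 0.16 with dE2F1/dDP and 0.33 in the combined genotype of the authors' deposited table. The kinase Tor and both of its inhibitors therefore had the same order of values, lowest with miR-11 and highest with all transgenes, and none was called. The order was not particular to them, since chico had it too (0.06, 0.41 and 0.44). That order was picked out after the values were seen, so it is a description. The share of all genes with the same order was not counted. By distance over the 3 log2 changes of the authors' deposited table, 16 of the other genes were nearer to Tor than gig was, and 11 were nearer to gig than Tor was. Tsc1 was farther off, with Tor as its nearest growth gene and 574 genes nearer to it in the authors' deposited table.

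The kinase gene S6k, which acts below Tor, was at log2 0.007 with miR-11, 0.60 with dE2F1/dDP (a 1.52-fold mean change) and 0.54 in the combined genotype (1.46-fold) in the authors' deposited table. It had the largest change of the 9 genes in both genotypes with dE2F1/dDP, and 95.4% of all genes lay below it in each in the authors' deposited table. Its p for higher expression was 0.0414 and 0.0359 in those genotypes, with pfp values of 0.710 and 0.587 in the authors' deposited table. S6k was thus not called in either genotype.

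The Myc gene dm was at log2 0.04 with miR-11, 0.49 with dE2F1/dDP and 0.27 in the combined genotype in the authors' deposited table. Its p for higher expression was 0.0943 and 0.199 in the genotypes with dE2F1/dDP in the authors' deposited table. chico, foxo, S6k and dm shared a pattern, within 0.06 of 0 with miR-11 and positive with dE2F1/dDP, in the authors' deposited table. These 4 genes were put together after their values were seen, so the pattern is a description. The eye disc markers ey, eya, dac and gl had it too, while the other eye disc markers lay farther from 0 with miR-11. The share of all genes with the pattern was not counted.

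Other genes lay closer to S6k and dm over the 3 changes than any growth gene did. The 4 nearest to S6k in the authors' deposited table were RluA-2, CG11537, Bsg25D and the small GTPase gene Rab8, at distances of 0.0224 to 0.0362 on the log2 scale. The 4 nearest to dm were CG13606, Ntf-2, CG17568 and CG6254, at 0.0171 to 0.0383 in the authors' deposited table. Among growth genes the nearest to dm was foxo at a distance of 0.104, with 77 other genes nearer, in the authors' deposited table. The measure rests on 3 values that share the control arrays.

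The combined genotype was then set against each single genotype by subtracting log2 changes of the authors' deposited table, which has no test for these differences. Against dE2F1/dDP alone, InR was lower by the largest amount, with a difference of -0.68, and 0.527% of all genes had a lower one in the authors' deposited table. Thor was on the other side at 0.40, with 97.3% of all genes below it in the authors' deposited table. The central 90% of all genes spanned -0.29 to 0.28 for this difference in the authors' deposited table, and the other 7 growth genes, from -0.21 to 0.26, lay inside it. S6k (-0.06) and chico (0.02) were closest to 0 in the authors' deposited table.

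Against miR-11 alone, 8 of the 9 genes were higher in the combined genotype, and InR stood at -0.02, in the authors' deposited table. The largest differences were 0.78 for gig and 0.73 for Tor, with 97.5% and 96.6% of all genes below them in the authors' deposited table. The 9 genes had a median difference of 0.38 there, beside -0.01 over all genes of the authors' deposited table. The same 2 genes were farthest from the sum of the single changes, the combined value exceeding that sum by 0.67 for gig and 0.61 for Tor in the authors' deposited table. The central 90% of all genes spanned -0.40 to 0.47 for that quantity in the authors' deposited table, and the other 7 growth genes lay between -0.26 and 0.31.

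**Figure D2:**
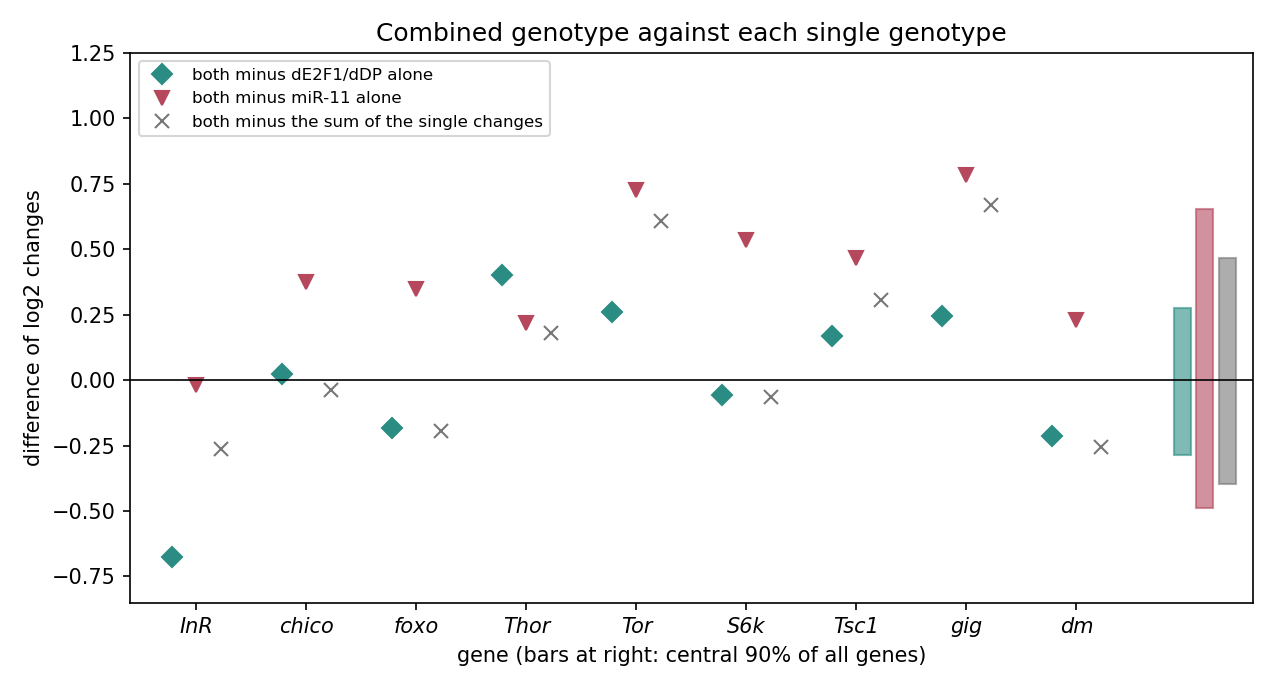
Difference of log2 changes (vertical axis) for each growth gene (horizontal axis): combined genotype minus dE2F1/dDP alone (diamonds), minus miR-11 alone (triangles) and minus the sum of both single changes (crosses), with bars at the right for the central 90% of all genes. InR is lowest against dE2F1/dDP alone at -0.68, and gig and Tor are highest against miR-11 alone at 0.78 and 0.73; no test exists for these differences.

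A wider list of 67 genes of the same pathways, of which 65 were matched in the authors' deposited table, was sorted into 9 roles. Of these, 0 were called with miR-11, 0 with dE2F1/dDP and 1, a fall, in the combined genotype (1.54% of the list, beside the 0.851% of all genes given above) in the authors' deposited table. The unadjusted threshold was passed by 2 genes on the higher and 6 on the lower side with miR-11 (12.3% of the list, 6.94% of all genes), by 12 and 4 with dE2F1/dDP (24.6% and 12.9%) and by 8 and 6 in the combined genotype (21.5% and 14.5%) in the authors' deposited table. The median of the list was log2 -0.08, 0.18 and 0.10 in that order in the authors' deposited table. With dE2F1/dDP 45 of the 65 were positive (69.2%), beside 42.9% of all genes in the authors' deposited table.

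Upstream of the receptor, Ilp5, an insulin-like peptide gene of neurosecretory cells in the larval brain, was the 1 called gene. It fell by 1.46 on the log2 scale in the combined genotype (p for lower expression 0.0001, pfp = 0.0275) in the authors' deposited table. It stood at -0.88 with miR-11 and -1.51 with dE2F1/dDP (pfp = 0.0649) and was not called there in the authors' deposited table. Ilp2, made by the same brain cells, was at -0.53, -1.01 and -1.02 in the same order, with a pfp of 0.0903 in the combined genotype of the authors' deposited table. Both peptide genes were thus below the control in all 3 genotypes. A list of ring gland and neurosecretory marker genes (phm, dib, sad and Akh) marks tissue outside the disc. It holds no gene specific to the brain cells that make Ilp2 and Ilp5. The list had 3 of 4 members called lower in the combined genotype (0.851% of all genes were called) and a median of log2 -1.37 in the authors' deposited table. Its median was -0.37 with miR-11 and -0.54 with dE2F1/dDP, with 0 of 4 called in each. The lowest of the called markers in the combined genotype, the adipokinetic hormone gene Akh, was at -0.36, -0.95 and -2.08 in the authors' deposited table. The marker that was not called, dib, was at 0.03, -0.11 and -0.15. The part of such tissue in the peptide values was not tested.

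ImpL2, whose secreted product binds insulin-like peptides and restrains the pathway, was at log2 -0.14 with miR-11, 1.05 with dE2F1/dDP (p for higher expression 0.0012, pfp = 0.256) and 0.51 in the combined genotype in the authors' deposited table. Sdr, named after its values were seen, encodes a secreted decoy of the receptor and was at -0.42, -0.58 and -0.50 in the authors' deposited table. Neither was called. The list around PI3 kinase and Akt, which also holds targets of Akt, had all 10 genes positive with dE2F1/dDP (median log2 0.39; 42.9% of all genes were positive) and 9 of 10 in the combined genotype (median 0.21; 44.1%) in the authors' deposited table. The highest of them was sgg, the gene of the Akt target GSK3, at 0.80 with dE2F1/dDP (pfp = 0.479) in the authors' deposited table.

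The list of TOR complex subunits and direct regulators holds activators as well as the inhibitors Nprl2 and Nprl3. With dE2F1/dDP 4 of its 10 genes were positive (40.0%, median log2 -0.13), beside 42.9% of all genes. In the combined genotype 3 of 10 were positive (30.0%, median -0.16), beside 44.1% of all genes of the authors' deposited table. The largest value of this list in each genotype was that of rictor, a subunit of the second TOR complex. It was at -0.50 with miR-11, 0.41 with dE2F1/dDP and 0.65 in the combined genotype of the authors' deposited table. This is the order of values that Tor, gig, Tsc1 and chico had, again a description made after the values were seen. Other genes of the wider list had it too, Lnk, Pi3K92E, Akt1 and Sesn among them. Among TOR brakes and energy sensors the largest value belonged to REPTOR-BP, whose product partners the TOR-restrained transcription factor REPTOR, at -0.64 with dE2F1/dDP (pfp = 0.523) in the authors' deposited table. The 4 translation genes measured below TOR were all positive with dE2F1/dDP (median 0.40), led by the scaffold gene eIF4G at 0.49, and all negative with miR-11 (median -0.10), in the authors' deposited table. Over all genes 42.9% were positive with dE2F1/dDP and 43.0% with miR-11. Amino acid transporter and autophagy genes had 5 of 6 positive with dE2F1/dDP (median 0.52), beside 42.9% of all genes. Of the list, 3 genes passed the unadjusted threshold there (50.0%, beside 12.9% of all genes) in the authors' deposited table. These 3, named after their values were seen, were the transporter genes path (0.66) and mnd (0.63) and the autophagy kinase gene Atg1 (0.59) in the authors' deposited table. The 1 negative gene, the amino acid transporter gene slif, was at 0.69 with miR-11 (pfp = 0.534), -0.17 with dE2F1/dDP and 0.007 in the combined genotype of the authors' deposited table. The 3 foxo target genes of the list had medians of -0.04, 0.06 and 0.003, with the lipase gene bmm farthest from it at 0.34 in the combined genotype of the authors' deposited table.

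On the Myc side, 5 of 7 genes of Myc partners and Myc turnover were positive with dE2F1/dDP (71.4%, median log2 0.42). The share over all genes of the authors' deposited table was 42.9%. The positive genes included 2 that act against Myc, Mnt (0.70, pfp = 0.604) and ago (0.28), so the list has no single direction for Myc activity. The negative ones were pont and rept. puf, which encodes a deubiquitinase that stabilises Myc, was at 0.28 with miR-11, 1.01 with dE2F1/dDP (p for higher expression 0.0008, pfp = 0.216) and 0.54 in the combined genotype of the authors' deposited table. The nucleolar genes of ribosome production, a class of Myc targets, had medians of -0.10, 0.10 and 0.08 in the same order in the authors' deposited table. The largest value among them was that of mod, a nucleolar protein gene, at 0.78 with dE2F1/dDP (pfp = 0.527) in the authors' deposited table. Neither class held a called gene.

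**Figure D3:**
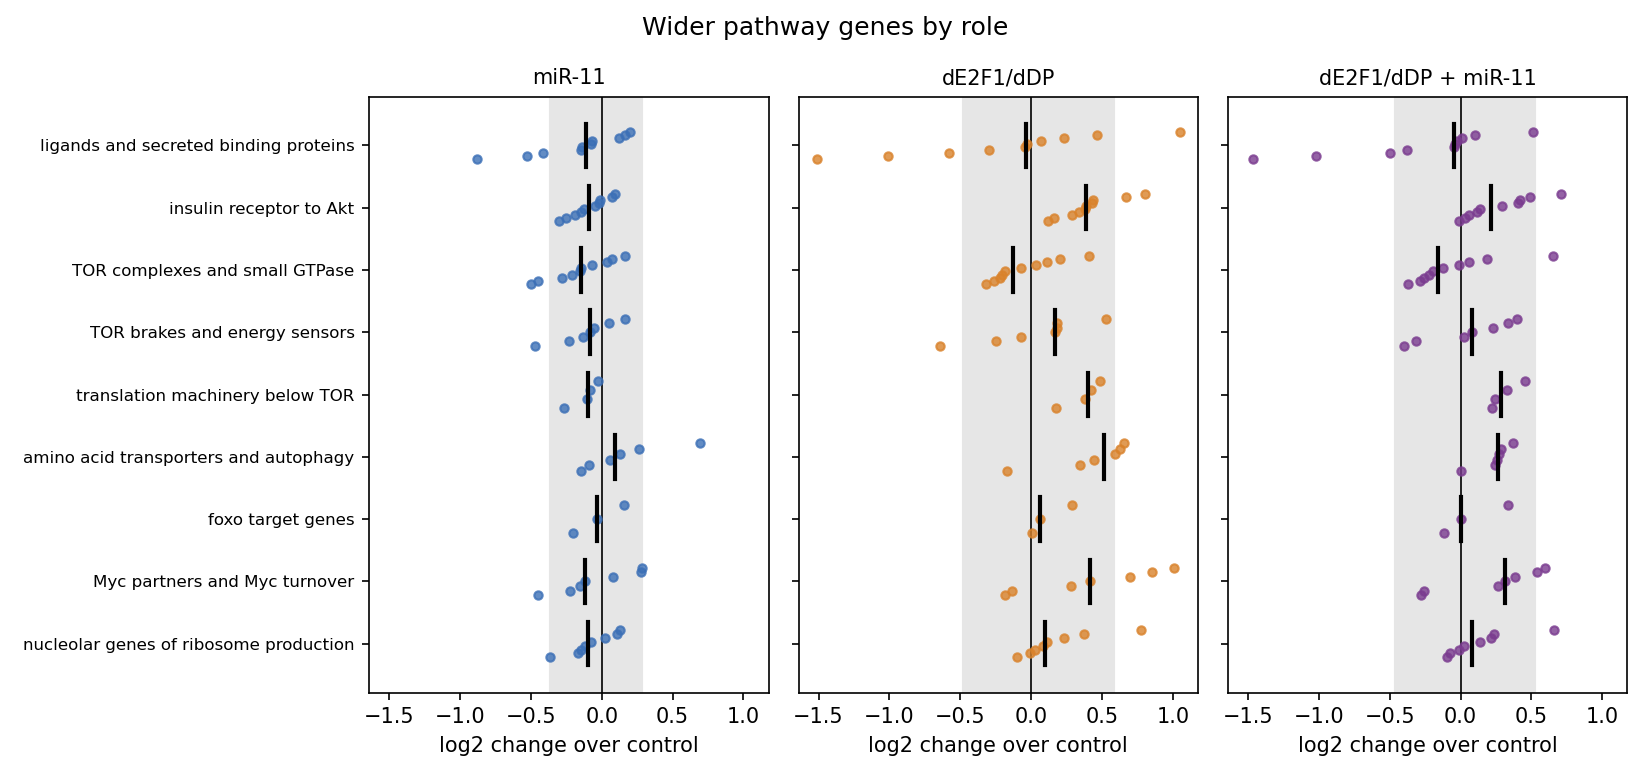
Log2 change over the driver control (horizontal axis) of the 65 wider pathway genes (points) by role (vertical axis), 1 panel for each transgenic genotype, with the median of each role as a black bar and the central 90% of all genes in grey. Ilp5 and Ilp2 are the 2 lowest points among the ligands in each panel, and ImpL2 and puf exceed 1 with dE2F1/dDP.

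Marker genes of the disc and of other tissues were described in the same way. For the counts below, 0.452% of all genes were called with miR-11, 0.346% with dE2F1/dDP and 0.851% in the combined genotype. The shares of all genes that were positive were 43.0%, 42.9% and 44.1% in that order. All 10 eye disc markers were positive with dE2F1/dDP (median log2 0.47) and in the combined genotype (median 0.34) and had a median of -0.05 with miR-11, in the authors' deposited table. In each of the 3 comparisons 0 of 10 were called. For comparison, the 9 growth genes lay between 0.04 and 0.60 with dE2F1/dDP, and Thor, gig, Tor, Tsc1 and InR were below the lowest eye disc marker (0.31) in the authors' deposited table. Since the table holds changes only, the presence of the tissue cannot be read from the level of these markers. Salivary gland markers had medians of 1.44 with miR-11 (range 0.06 to 2.23), 1.03 with dE2F1/dDP (range -1.35 to 1.91) and -1.64 in the combined genotype (range -1.93 to -0.28). With dE2F1/dDP 6 of 8 were positive, while ng1 (-0.79) and ng3 (-1.35) were negative. In the same order of genotypes, 2 were called higher, 2 called higher and 5 called lower of 8 in the authors' deposited table. Fat body markers were all 6 positive with miR-11 (median 1.20, 1 called). With dE2F1/dDP 2 were positive and 4 negative (median -0.39, range -1.19 to 0.74). In the combined genotype 1 was positive and 5 negative (median -0.30) in the authors' deposited table. Muscle markers had medians of 0.11, 0.17 and 0.91, with 2 of 7 called higher in the combined genotype of the authors' deposited table. Hemocyte markers had medians of 0.54, 0.05 and 0.03, and 1 of 5, the phagocytosis receptor gene nimC1, was called higher with miR-11 (1.54) and in the combined genotype (1.31) of the authors' deposited table. Glia markers had medians of -0.18, 0.06 and 0.16 with 0 of 3 called, over members as far apart as Mdr65 (-1.15 with miR-11) and moody (0.91 in the combined genotype) in the authors' deposited table. The part of any of these tissues in the values of the growth genes was not tested.

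**Figure D4:**
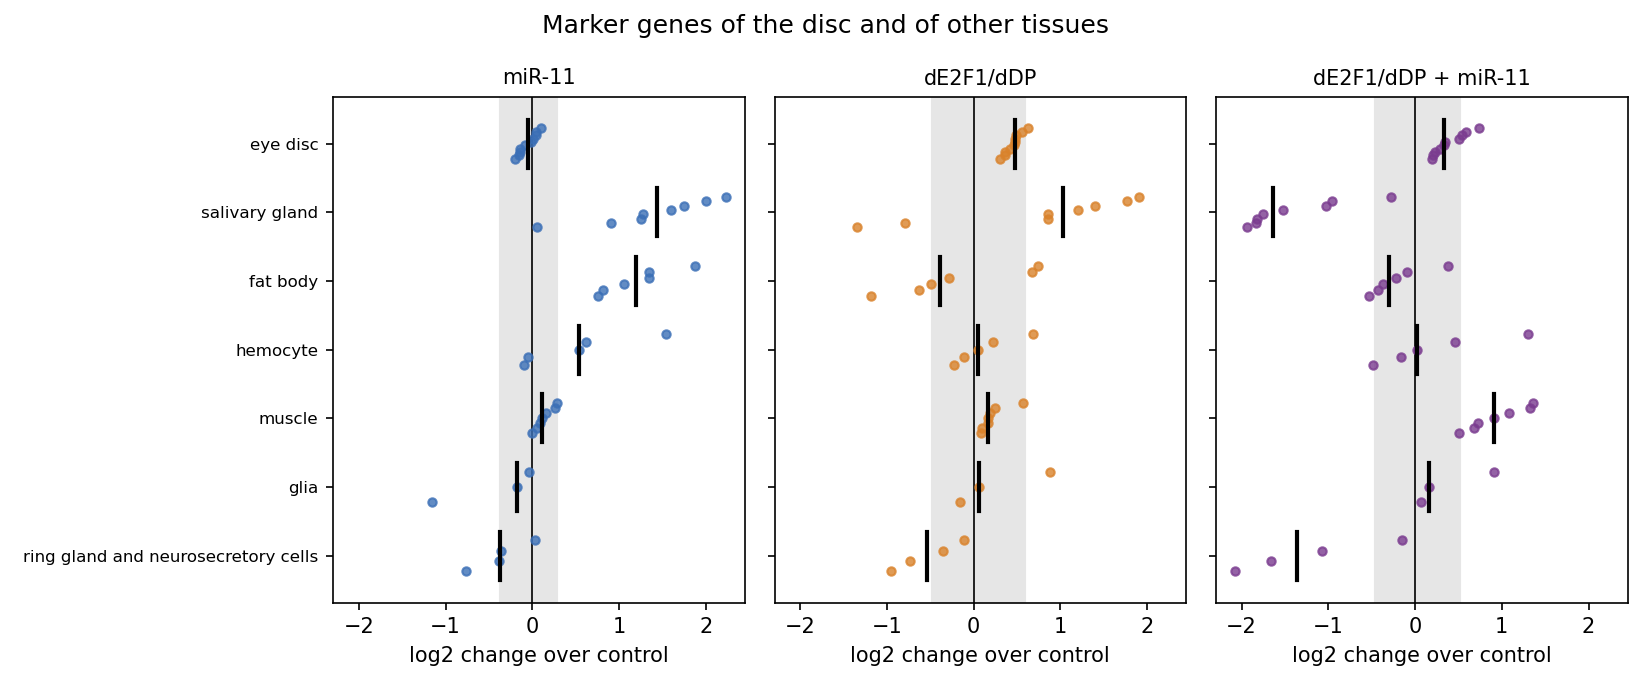
Log2 change over the driver control (horizontal axis) of marker genes (points) of the eye disc and of 6 other tissues (vertical axis), 1 panel for each transgenic genotype, with the median of each list as a black bar and the central 90% of all genes in grey. Eye disc markers lie from 0.31 to 0.63 with dE2F1/dDP, and salivary gland markers turn from a median of 1.44 with miR-11 to -1.64 in the combined genotype.

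The arrays themselves bound how small a change could be seen. Over 18769 probe sets the median standard error of a log2 difference between 3 and 3 arrays was 0.17 by limma, and 0.28 among the brighter probe sets, those whose mean is above the median of all values. For scale, 26 of the 27 log2 changes of the growth genes were smaller than 2 of the latter standard errors, but only 13 were smaller than 2 of the former, so the count turns on a brightness that is not known for these genes. The standard errors are those of the arrays' probe sets at large, not of the growth genes. Among brighter probe sets 38.1% were positive with miR-11 (median change -0.05), 49.3% with dE2F1/dDP (median -0.006) and 50.3% in the combined genotype (median 0.003). After quantile normalization the share with miR-11 was 44.3% and the median -0.03. Without it, the upper quartiles of the brighter probe sets' changes were 0.07, 0.30 and 0.27 in that order of genotypes, beside 0.08, 0.14 and 0.13 over all genes of the authors' deposited table. Shares and ranks over all genes given above therefore set the growth genes against many dimmer genes with smaller changes. A comparison with brighter genes alone was not made. Upper quartiles of the arrays ranged from 7.71 to 8.28 on the log2 scale, and the lowest were those of miR-11 replicate 3 (7.71), control replicate 1 (7.90) and dE2F1/dDP replicate 3 (7.93).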

How the data were processed

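The deposited log2 expression values come from 12 Affymetrix arrays, and the package affy is named per the submitters' processing notes, with settings not given in the sources used here. Log2 fold changes, p-values and pfp (another score, which can exceed 1) per gene are the authors' rank product results, per the file headers. Their M/wt, ED/wt and MED/wt columns were read as miR-11, dE2F1/dDP and both over control: 301 genes reach a log2 change of 1 in size, and 100% of them had a probe set with the same 3 differences of array means within 0.01, and 0% did with the columns rotated. Lists of genes were matched through symbols, 16 of 65 by a synonym that RefSeq lists for the Release 6 assembly.

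The planned limma test of each growth gene on arrays could not be made, since no table used here pairs probe sets with genes. limma 3.58.1 in R 4.3.3 (genotype only, 183 control probe sets left out) gave array precision alone, and was tested on simulated data. Replicate numbers are shared between genotypes. In deviations from the group means, 6 of 18 same-number pairs of arrays correlated above 0.1, with a range of -0.661 to 0.844. The numbers were therefore not taken to pair the samples, although some arrays shared strong deviations. Nothing in the labels says more than biological replicates.

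The rule named all 9 growth genes, called genes of the wider list, its 2 largest changes per comparison and the largest in each role. It also named the 4 genes nearest in Euclidean distance to the growth gene of largest change and to dm. Members, lists and tests were chosen with earlier results of these data known. Alternatives were other thresholds, centring, quantile normalization, a brightness filter, the replicate block, only the groups compared and leaving out arrays. Promoter motifs and sequences were not analysed here.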

Additional observations from a re-analysis of the deposited data

How the results depend on the processing

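The count of growth genes called was 0 in all 3 comparisons at a pfp under 0.05, 0.10 and 0.01 and by Benjamini-Hochberg adjustment of the doubled p-values of the authors' deposited table. Of the wider list, a pfp under 0.10 called 1 gene (Ilp5) with dE2F1/dDP and 2 (Ilp5 and Ilp2) in the combined genotype, against 0 and 1 at 0.05, and a pfp under 0.01 called 0 in the combined genotype, in the authors' deposited table. Subtracting the median of all genes, at most 0.03 in size, turned no sign among the 27 log2 changes. The limma fit of member probe sets, with its alternatives, was not run, because probe sets could not be tied to genes, so no value of a growth gene could be recomputed without an array. The median standard error of a probe set was 0.163 with the replicate block against 0.169 without it, 0.151 after quantile normalization and 0.155 to 0.198 when single arrays were left out. These fits estimate the spread over all genotypes. With only the groups compared, the median standard error was 0.178 with miR-11, 0.164 with dE2F1/dDP and 0.137 in the combined genotype. The median change of brighter probe sets lay between -0.10 and 0.04 over the 3 comparisons when single arrays were left out, and between -0.10 and -0.007 with miR-11. The number of arrays limits the precision of all values.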
